A study of Rattus norvegicus with 3 samples.

Results

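The metallothionein genes Mt1 and Mt2A, their metal-sensing transcription factor Mtf1 and the zinc transporter genes Slc39a14 and Slc30a1 were followed in irradiated rat soleus, a calf muscle of mostly slow fibres that works against gravity. These 5 genes, out of 14506 genes with a probe set annotated to a single symbol, were picked by name with the differences between the groups already known, so their values are given as a description. They were read by 7 of the 29170 probe sets of the Affymetrix Rat Gene 1.0 ST array. Mt1 and Mt2A each had 2 probe sets and the other members 1, and the brightest probe set, by its mean over the arrays, stood for its gene. The 3 groups were DN, whose soleus was denervated, TS, whose rats were suspended by the tail so that the hind limbs carried no load, and Ct, which had neither. Rats of all 3 groups, Ct included, were irradiated continuously over 2 weeks to a total of 50 mSv. They came from a strain labelled Brown and were described as 7 weeks old. RNA of 6 rats was pooled per group and hybridised to 1 array, so there was no spread between samples, no test could be made, and every difference describes these pools. An unirradiated group was not analysed here. How long the muscle had been denervated or the rats suspended is not given in the sources used here.

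Metallothioneins are small cysteine-rich proteins that bind zinc and copper ions in the cell and buffer their free levels. The zinc-finger factor MTF-1, encoded by Mtf1, senses free zinc and binds metal response elements in the promoters of metallothionein genes and of Slc30a1. Slc30a1 encodes ZnT1, which exports zinc across the plasma membrane, and Slc39a14 encodes ZIP14, which imports zinc, iron and manganese and is known to be induced by interleukin-6 in mouse liver. Metallothionein genes are also known to respond to glucocorticoids and to oxidative stress, and their transcripts are known to be higher in several kinds of muscle wasting in rodents.

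Values are RMA expression values on the log2 scale. The arrays were alike in overall level, with medians over all probe sets of 6.33 in DN, 6.35 in TS and 6.32 in Ct. Of the 14506 genes, 10154 had a mean at or above the 30th percentile (5.72) and were compared, and all 5 members were among them. Over the compared genes the array median was 8.25 in TS and 8.12 in Ct, a gap of 0.13. Taken gene by gene, the median difference of TS from Ct was smaller, at 0.02. Where the gap between array medians matters to a difference that involves TS, the value is also given centred. There, each array's median over the compared genes was taken off first. Centred values are an alternative scaling and not a correction, because centring also moves genes with equal values. Nr3c1, equal on every array, stood with centring at -0.13 in TS against Ct and at 0.13 in DN against TS. RMA can return the same value for a probe set on different arrays, as it did for 42.9% of compared genes between DN and Ct, 24.7% between TS and Ct and 26.3% between DN and TS. A difference of 0.00, or a list median of 0.00 in DN against Ct, can rest on such equal values. Of 12 muscle fibre genes, 12 passed the filter, with values from 10.71 to 13.99, so markers of the labelled tissue were present. Of these, Ckm, Myl2 and Myl3 lay past the 1.5-fold limit below Ct in DN (3 of 12) and none above it, with a list median of -0.25. In TS 1 was lower (2 with centring) and 1 higher, with a median of -0.17 (-0.30 with centring). Of all compared genes, 5.53% were past the limit below Ct in DN and 4.93% above it. In TS 2.68% were below and 5.89% above (3.94% and 3.52% with centring).

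Mt1 and Mt2A were the members that stood apart, and both were several-fold higher in DN and in TS than in Ct. Mt1 read 11.67 in DN, 10.85 in TS and 9.02 in Ct. The DN array was highest and the Ct array lowest for this gene. Mt1 was thus 2.65 higher (log2) in DN than in Ct, or 6.28-fold, and 1.82 higher in TS than in Ct, or 3.54-fold. Its other probe set, annotated to the same gene symbol, read 11.59 in DN, 10.61 in TS and 8.70 in Ct. The arrays kept the same order there, where Mt1 was 2.89 higher in DN and 1.91 higher in TS than in Ct.

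Mt2A, the second metallothionein found in most tissues, read 11.48 in DN, 11.31 in TS and 9.20 in Ct. Here DN and TS lay close together and both lay far above Ct. Mt2A was 2.28 higher in DN than in Ct, or 4.85-fold, and 2.10 higher in TS than in Ct, or 4.30-fold. The dimmer Mt2A probe set read 10.83 in DN, 10.66 in TS and 8.52 in Ct, with differences of 2.31 and 2.14 from Ct. All 4 probe sets stayed below the highest value of the arrays, which was 13.90 in DN and 13.99 in TS and Ct.

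**Figure D1:**
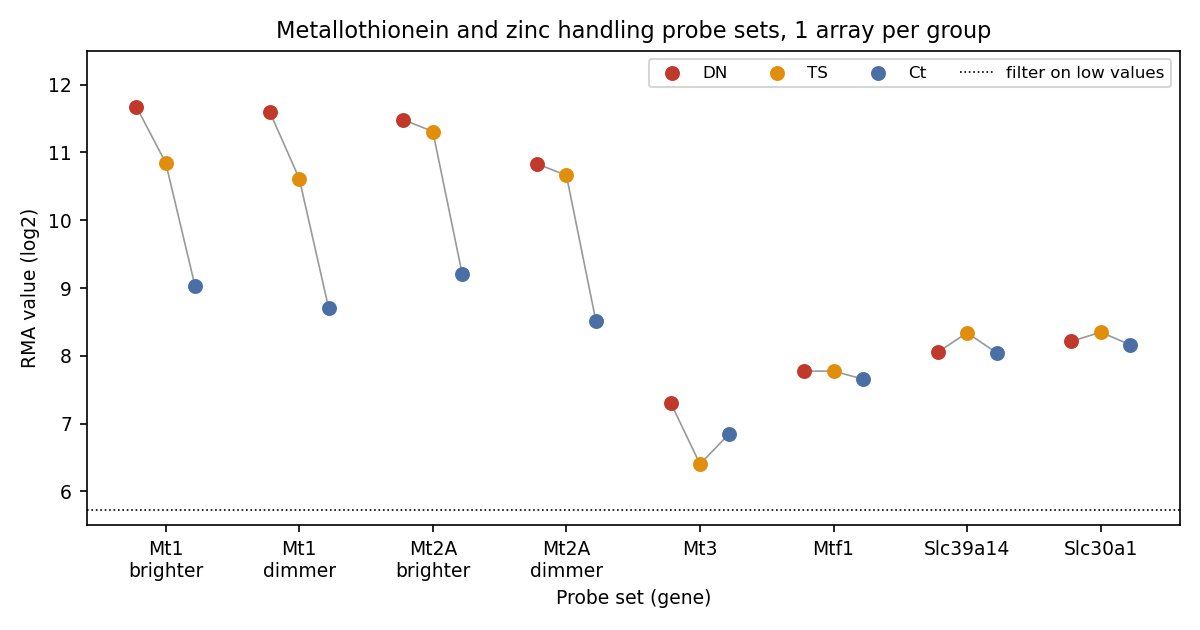
RMA values (log2, vertical axis) of each probe set of Mt1, Mt2A, Mt3, Mtf1, Slc39a14 and Slc30a1 on the DN, TS and Ct arrays, 1 point per array; grey lines join the arrays of a probe set and the dotted line marks the filter on low values (5.72). All 4 Mt1 and Mt2A probe sets lie far above Ct in DN and TS, Mt1 differs between DN and TS more than Mt2A does, and Mtf1, Slc39a14 and Slc30a1 stay within 0.30 of Ct.

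Among the 10154 compared genes, Mt1 ranked 29 from the top in DN against Ct and 25 in TS against Ct. Mt2A ranked 45 and 14. At a limit of 1.5-fold, 2 of 5 members were higher in DN than in Ct, where 4.93% of compared genes were, and 2 of 5 were higher in TS than in Ct, where 5.89% were. No member was at least 1.5-fold lower than Ct in DN or in TS, against 5.53% and 2.68% of compared genes. The members had been chosen with these differences known, and both comparisons use the same Ct array.

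**Figure D2:**
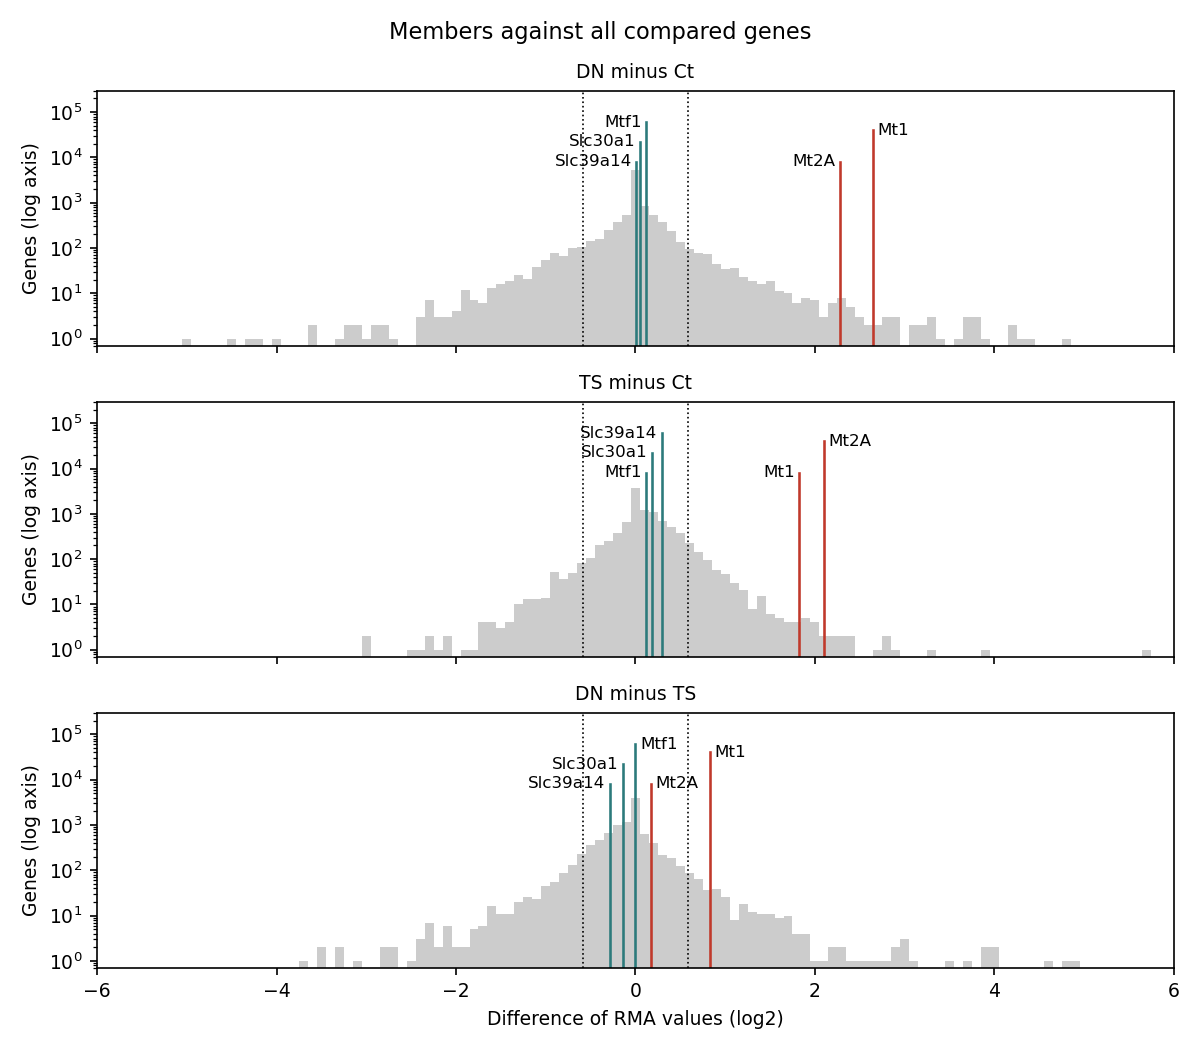
Histograms of the log2 differences of the 10154 compared genes (horizontal axis, bars of 0.1; vertical axis the number of genes, on a log scale) for DN against Ct, TS against Ct and DN against TS. Vertical lines mark the members and dotted lines the 1.5-fold limit. Mt1 and Mt2A lie in the right tail against Ct, while Mtf1, Slc39a14 and Slc30a1 lie inside the limits in all 3 panels.

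Set directly against each other, DN and TS differed in Mt1 more than in Mt2A. Mt1 was 0.83 higher in DN than in TS, or 1.78-fold, by its brightest probe set and 0.98 higher by the other. Mt2A was 0.17 higher in DN than in TS by both probe sets, a 1.13-fold difference. With centring the brightest probe sets gave 0.95 for Mt1 and 0.30 for Mt2A. Of the members, 1 of 5 was at least 1.5-fold higher in DN than in TS, where 3.20% of compared genes were, and none was lower, where 5.93% were. The excess of Mt1 over Mt2A in DN minus TS was 0.66 for the brightest probe sets and ran from 0.66 to 0.81 over the 4 pairs of probe sets. A second probe set was bright enough in 401 genes, and for 6.98% of them a gene's own probe sets disagreed by more than 0.66 in this comparison. In DN minus Ct, Mt1 was above Mt2A by 0.37, a gap that 3.74% of those genes exceeded. In TS minus Ct it was below Mt2A by 0.28, a gap that 21.4% exceeded. Gaps between probe sets of a gene arise on the same arrays, and equal RMA values can make them small. These shares therefore do not measure error between pools or arrays, which is unknown here.

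The coding sequences of Mt1 and Mt2A are close to each other, so their probe sets may share signal, and the RefSeq table used here lists 3 Mt1 pseudogenes (Mt1-ps1, Mt1-ps3 and Mt1-ps4), any of which may share sequence with the probes. The part of such shared signal in these values was not tested. Because the RNA came from whole muscle, more transcript per cell and more cells that carry it cannot be told apart.

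Of the other metallothioneins, Mt3 was not higher than Ct in both pools, and Mt4 lay below the filter. Mt3, a form best known from brain, read 7.31 in DN, 6.40 in TS and 6.85 in Ct. It lay on opposite sides of Ct, 0.46 higher in DN and 0.45 lower in TS (log2 differences of 0.46 and -0.45), short of 1.5-fold in both, and at -0.58 in TS with centring. Mt3 was 0.91 higher in DN than in TS (1.03 with centring), or 1.88-fold, in the same direction as Mt1. Mt4, a form known from stratified epithelia, read 5.03 on all 3 arrays, below the filter, so no difference can be read for it.

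The promoters of Mt1 and Mt2A are shown because both genes were higher in both pools, and that of Slc30a1 because it is a known MTF-1 target whose values hardly differed. RefSeq promoter sequences matched 4 of 5 members (Mt1, Mt2A, Mtf1 and Slc30a1; not Slc39a14). The core of the metal response element was searched as TGCACNC or TGCGCNC on both strands in the 250 bases before the annotated start, and matches are in capitals. Sequences run 5′ to 3′ on the gene's strand.
Mt1 (GRCr8, chr19:10832976-10833225, minus strand): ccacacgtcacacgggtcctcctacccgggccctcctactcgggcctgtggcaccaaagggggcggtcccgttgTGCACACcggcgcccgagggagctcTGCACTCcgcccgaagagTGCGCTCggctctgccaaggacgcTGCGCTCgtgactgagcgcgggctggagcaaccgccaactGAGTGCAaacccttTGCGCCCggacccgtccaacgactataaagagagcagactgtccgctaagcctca
Mt2A (GRCr8, chr19:10838709-10838958, minus strand): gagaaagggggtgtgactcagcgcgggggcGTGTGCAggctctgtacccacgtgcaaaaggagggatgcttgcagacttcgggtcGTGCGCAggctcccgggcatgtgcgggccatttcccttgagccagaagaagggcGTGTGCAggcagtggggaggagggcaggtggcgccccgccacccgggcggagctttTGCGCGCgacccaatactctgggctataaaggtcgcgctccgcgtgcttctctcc
Slc30a1 (GRCr8, chr13:106021769-106022018, plus strand): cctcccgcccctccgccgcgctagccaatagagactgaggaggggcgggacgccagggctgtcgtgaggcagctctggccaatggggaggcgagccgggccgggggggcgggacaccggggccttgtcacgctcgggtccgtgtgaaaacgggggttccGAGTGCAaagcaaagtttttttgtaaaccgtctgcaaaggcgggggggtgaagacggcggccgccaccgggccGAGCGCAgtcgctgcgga

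The Mt1 window held 6 matches and the Mt2A window 4, whereas Slc30a1 and Mtf1 held 2 each and the Mt3 window 3. Among 33469 promoter windows of the same length, those of these genes included, 20.6% held at least 1 match and 4.90% at least 2. As many as 4 matches were found in 0.266% of windows and as many as 6 in 0.0269%. These windows are rich in G and C, at 66.4% for Mt1, 66.0% for Mt2A and 69.2% for Slc30a1, against a median of 51.2% over all windows. Among the 2232 windows within 2 percentage points of the Mt1 content, 39.2% held at least 1 match. In that set 0.0448% held 6 or more, a share that the Mt1 window alone makes up. Among windows near Mt2A, its own included, 0.696% held 4 or more. Windows near Slc30a1 held 2 or more in 13.1%, those near Mtf1 2 or more in 10.6% and those near Mt3 3 or more in 2.54%. The core of the antioxidant response element, searched as TGACNNNGC on both strands, was found in 10.1% of windows. Among the 8422 windows of compared genes, with a median G and C content of 60%, the share was 12.9%. For this core no share was computed among windows of like G and C content. The antioxidant core occurred 1 time in the Mt1, Mt2A and Slc30a1 windows and 2 times in that of Mtf1, in no case overlapping a metal response element match. In both Mt1 and Mt2A the match nearest to the start site lay at bases -55 to -49. These matches describe letters in a window and are not measured binding sites.

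**Figure D3:**
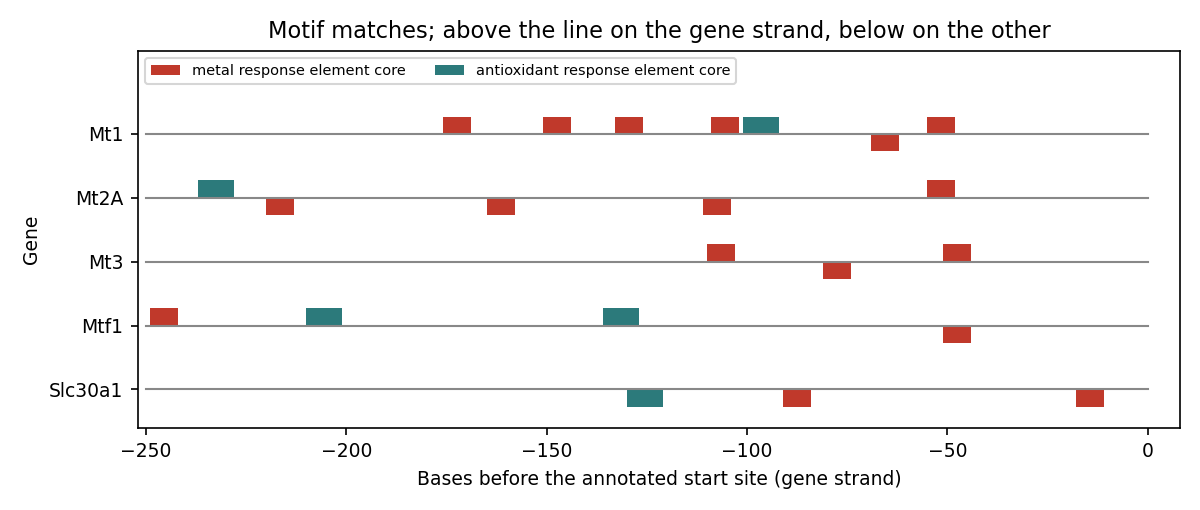
Positions of metal response element cores (red) and antioxidant response element cores (green) in the 250 bases before the annotated start site (horizontal axis, bases) of Mt1, Mt2A, Mt3, Mtf1 and Slc30a1; bars above a line lie on the gene's strand and bars below it on the other. Mt1 has 6 and Mt2A 4 metal response element matches, and the other genes have 2 or 3.

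The metal sensor and both zinc transporters among the members differed little between the pools. Mtf1 read 7.77 in DN, 7.77 in TS and 7.66 in Ct. DN and TS had exactly the same value, 0.12 higher than Ct, and with centring Mtf1 was 0.11 higher in DN than in Ct and stood at -0.01 for TS minus Ct. Slc30a1 read 8.21 in DN, 8.35 in TS and 8.16 in Ct. TS was its highest array, by 0.19 over Ct (0.05 with centring), and DN lay 0.05 above Ct.

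Slc39a14 read 8.05 in DN, 8.34 in TS and 8.04 in Ct. Its DN and Ct values were nearly the same, with a difference of 0.01, while TS was 0.30 higher than Ct, or 1.23-fold, and 0.16 higher with centring. DN was below TS by 0.29 (log2, -0.29) for Slc39a14 and by 0.14 (-0.14) for Slc30a1, and with centring these were -0.16 and -0.01. None of these 3 genes reached 1.5-fold in any comparison. Of the 10154 compared genes, 36.9% differed from Ct in DN by more than Mtf1, 46.8% by more than Slc30a1 and 55.3% by more than Slc39a14, whatever the direction. In TS these shares were 50.6% for Mtf1, 39.6% for Slc30a1 and 26.3% for Slc39a14.

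The wider families of zinc transporters also differed little. Of 14 ZIP genes (Slc39), whose products bring zinc into the cytosol, 11 were compared. Among the 11, 1 was at least 1.5-fold higher in DN than in Ct, where 4.93% of all compared genes were. This was Slc39a13, which encodes the ZIP13 transporter of the secretory pathway, at 9.54 in DN, 8.99 in TS and 8.61 in Ct. It was 0.93 higher in DN, or 1.91-fold, and 0.38 higher in TS (0.24 with centring). The median of the 11 was 0.01 for DN against Ct and 0.18 for TS against Ct (0.05 with centring), against 0.00 and 0.02 over all compared genes, and none was at least 1.5-fold different in TS. Slc39a8, the closest relative of Slc39a14, was 0.16 higher in DN than in Ct and 0.39 higher in TS than in Ct (0.25 with centring).

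Of 10 ZnT genes (Slc30), whose products move zinc out of the cytosol, 8 were compared. Their medians were 0.02 for DN against Ct and 0.13 for TS against Ct (0.00 with centring), and none was at least 1.5-fold different in DN. Slc30a2, a transporter of vesicles known from secretory tissue, was 0.65 higher in TS than in Ct, the single ZnT gene past 1.5-fold, and 0.52 higher, short of that limit, with centring. Slc30a4 was 0.30 higher in DN than in Ct and 0.42 higher in TS than in Ct (0.28 with centring). Values below the filter were those of Slc39a4, Slc39a5, Slc39a12, Slc30a8 and Slc30a10.

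**Figure D4:**
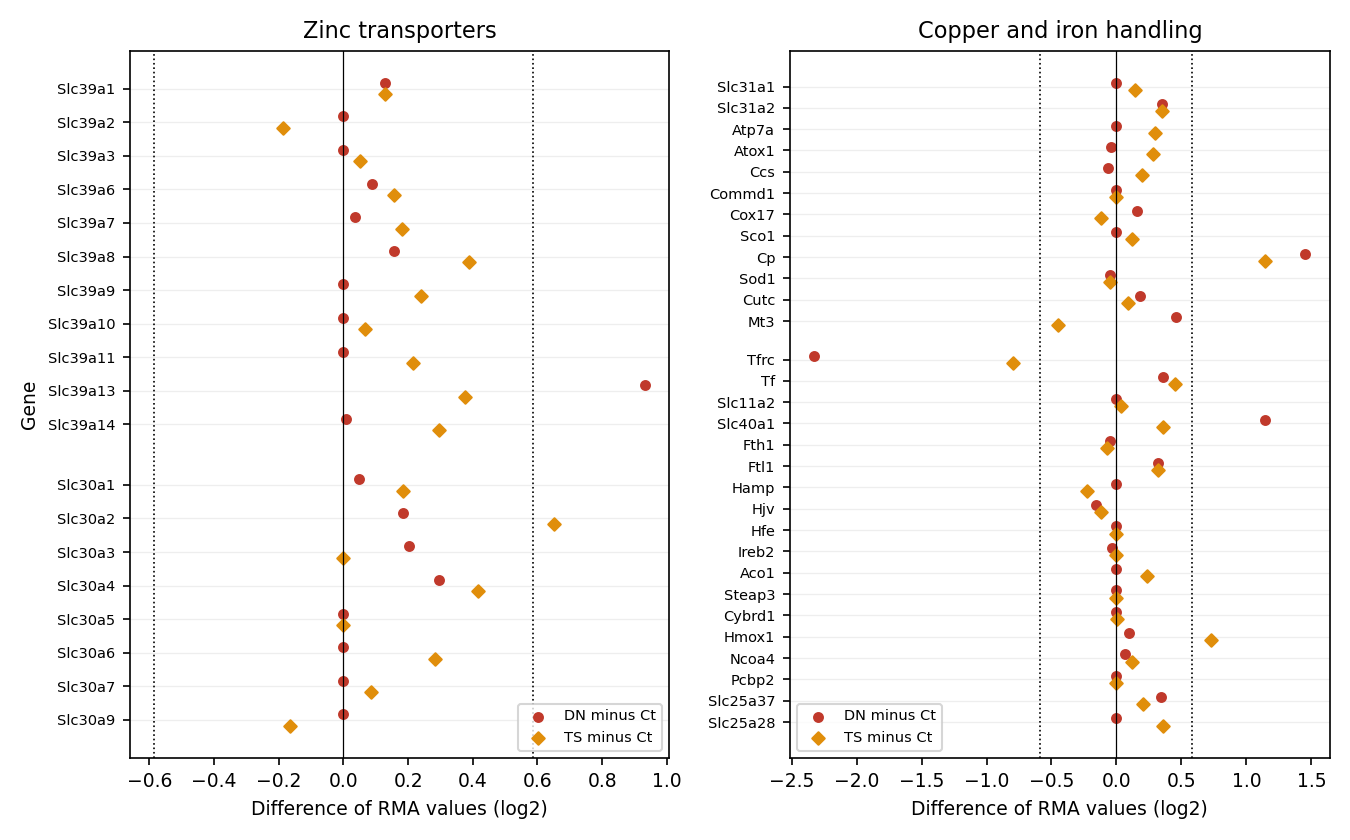
Differences of RMA values (log2, horizontal axis) from Ct for DN (circles) and TS (diamonds) of each compared zinc transporter (left; Slc39 above, Slc30 below) and of copper (right, above) and iron handling genes (right, below); dotted lines mark 1.5-fold. Slc39a13 in DN and Slc30a2 in TS are the zinc transporters past the limit, and Cp, Tfrc, Slc40a1 and Hmox1 are past it among the others.

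Genes linked to MTF-1 in mouse studies, other than the metallothioneins, did not share their size of difference. Of 9 MTF-1 linked genes compared, Mt1 and Mt2A included, 2 were at least 1.5-fold higher in DN than in Ct, where 4.93% of compared genes were. These were Mt1 and Mt2A, and the median of the 9 was 0.00. In TS the median, again with Mt1 and Mt2A, was 0.52 (0.39 with centring). There 4 of 9 were higher, Mt1 and Mt2A among them, where 5.89% of compared genes were, and none was lower. The further pair were Gclc, which encodes the catalytic subunit of glutamate-cysteine ligase, at 8.95 in DN, 9.57 in TS and 8.95 in Ct, and the growth factor gene Pgf, at 7.42 in DN, 8.31 in TS and 7.71 in Ct. Gclc was 0.63 and Pgf 0.61 higher in TS than in Ct, and centring brought them to 0.49 and 0.47, under 1.5-fold. Slc39a10, a zinc importer that MTF-1 is known to repress, was 0.00 in DN minus Ct and 0.07 in TS minus Ct, which turned to -0.07 with centring.

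Metallothioneins also bind copper, and 12 of 14 copper handling genes were compared. Ceruloplasmin (Cp), a copper-carrying ferroxidase, read 10.86 in DN, 10.55 in TS and 9.41 in Ct. It was 1.45 higher in DN than in Ct and 1.14 higher in TS than in Ct, and was the single copper gene past 1.5-fold in either comparison. The copper importer Slc31a1 was 0.00 in DN minus Ct and 0.14 in TS minus Ct (0.01 with centring). Sod1, the copper and zinc superoxide dismutase, was -0.05 in both (-0.18 in TS with centring). Of 18 iron handling genes compared, 1 was higher and 1 lower in DN than in Ct. The transferrin receptor Tfrc, which takes up iron, read 9.32 in DN, 10.85 in TS and 11.65 in Ct and was lowest in DN, with differences of -2.32 in DN and -0.80 in TS (-0.93 with centring). The iron exporter Slc40a1 was 1.14 higher in DN than in Ct and 0.36 higher in TS than in Ct (0.22 with centring). In TS, Tfrc was lower and heme oxygenase Hmox1 (0.73, or 0.60 with centring) higher, and the list's medians were 0.00 for DN against Ct and 0.02 for TS against Ct (-0.11 with centring). At 1.5-fold, 4.93% of all compared genes were higher and 5.53% lower in DN. For TS the shares were 5.89% and 2.68% (3.52% and 3.94% with centring).

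The genes whose differences from Ct lay nearest to those of Mt1, by Euclidean distance over both differences on 3 arrays, were Vash2 (0.17), Tmod1 (0.40), Angptl4 (0.44), Gstm2 (0.44) and Atp13a3 (0.45). Vash2, a tubulin carboxypeptidase gene, read 10.83 in DN, 10.02 in TS and 8.07 in Ct, highest in DN as Mt1 was. Nearest to Mt2A were Pvr (0.31), Tmod1 (0.31), Myh3 (0.33), Chi3l1 (0.39) and Hbegf (0.41). Pvr, a nectin-like adhesion receptor gene, read 10.67 in DN, 10.80 in TS and 8.70 in Ct, and Tmod1, which encodes a cap of actin filaments, read 11.58 in DN, 11.12 in TS and 9.33 in Ct. Distances over 3 arrays that share the Ct pool describe these arrays alone.

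Genes of the other inputs known to act on metallothioneins were listed as well. Of 17 glucocorticoid response genes compared, none was higher in DN than in Ct and 3 were lower by 1.5-fold or more, with a median of -0.19, while in TS 4 were higher and 1 lower (2 with centring), with a median of 0.26 (0.13 with centring). Fkbp5, a glucocorticoid-induced co-chaperone of the receptor, read 7.65 in DN, 8.94 in TS and 7.72 in Ct, high on the TS array alone. Zbtb16 read 8.56 in DN, 10.28 in TS and 9.53 in Ct, and Pdk4, a kinase that inhibits pyruvate dehydrogenase, 10.92 in DN, 12.62 in TS and 11.26 in Ct. Hsd11b1 went the other way in TS, at 9.72 in DN, 9.01 in TS and 9.91 in Ct. The receptor gene Nr3c1 read 10.30 on all 3 arrays. Over all compared genes, 4.93% were at least 1.5-fold higher and 5.53% lower in DN than in Ct. For TS against Ct these shares were 5.89% and 2.68% (3.52% and 3.94% with centring).

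Of 15 genes of interleukin-6 signalling and the acute phase, 5 were at least 1.5-fold higher in DN than in Ct and 5 in TS than in Ct (4 with centring), and none was lower. Medians were 0.28 for DN against Ct and 0.52 for TS against Ct (0.38 with centring). By comparison, 4.93% of all compared genes were at least 1.5-fold higher and 5.53% lower in DN. In TS the corresponding shares were 5.89% and 2.68% (3.52% and 3.94% with centring). Socs3, a feedback inhibitor of this pathway, read 7.98 in DN, 9.28 in TS and 6.99 in Ct. The protease inhibitor A2m was 1.76 higher in each of DN and TS, from a Ct value of 5.64 that lies under the filter, and Timp1 was 1.09 higher in DN and 1.56 higher in TS. Il6 itself read 4.25 on all 3 arrays, under the filter. Of 13 oxidative stress genes linked to the factor NRF2, none was higher and 1 lower in DN, and 2 were higher (1 with centring) and 2 lower in TS, with medians of 0.00 and 0.01 (-0.13 with centring in TS). The 2 higher in TS were Hmox1 at 0.73 (0.60 with centring) and Gclc at 0.63 (0.49 with centring). In DN these stood at 0.09 and 0.00. Nqo1, a quinone reductase and classic NRF2 target, was 0.46 higher in DN and lower in TS, at -1.19 (-1.32 with centring). Gsta4, the gene past the limit in DN, was lower in both, at -0.80 in DN and -0.92 in TS. All of these lists were chosen with earlier results of these data known, and none shows which input acts on Mt1 or Mt2A.

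**Figure D5:**
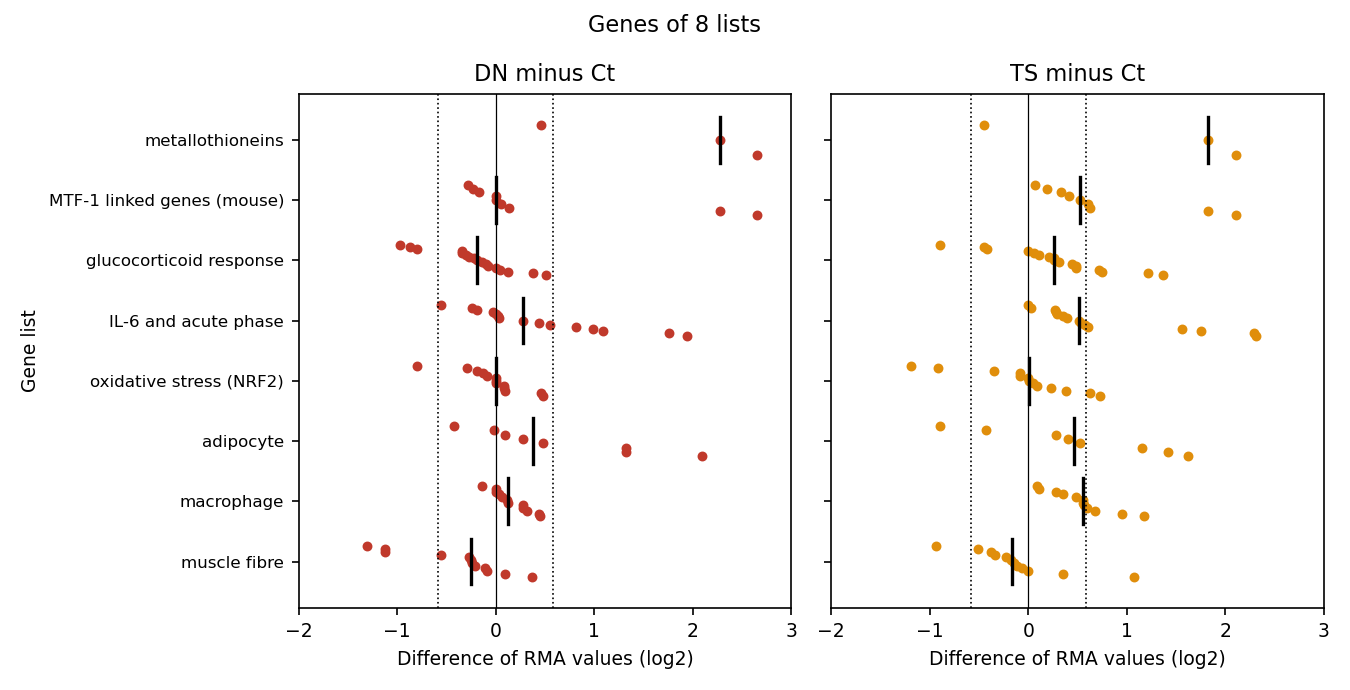
Differences of RMA values from Ct (log2, horizontal axis) for the compared genes of 8 lists in DN (left) and TS (right); each point is a gene, black bars are list medians and dotted lines mark 1.5-fold. Mt1 and Mt2A, which also appear in the MTF-1 linked list, lie above 1.8 in both panels, and the median of the glucocorticoid list is -0.19 in DN and 0.26 in TS.

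Markers of other cells that can carry metallothionein transcripts also differed between the pools. Of 8 adipocyte markers, 3 were at least 1.5-fold higher in DN than in Ct and none lower, and 3 were higher and 1 lower in TS, with medians of 0.38 and 0.47 (0.33 in TS with centring). Adipoq, which encodes adiponectin, read 9.92 in DN, 9.45 in TS and 7.82 in Ct. Cfd was 1.32 higher in DN than in Ct and 1.42 higher in TS (1.29 with centring). Cidec was 1.32 higher in DN and 1.16 higher in TS (1.02 with centring). Lpl was lower than Ct, at -0.43 in DN and -0.90 in TS (-1.03 with centring). Fabp4 stood at -0.02 in DN and -0.43 in TS (-0.56 with centring). The summed linear level of the list was 0.986 times that of Ct in DN and 0.771 times in TS, but 89.7% of the Ct sum came from Lpl and Fabp4, so this ratio says little of the other markers. Of 12 macrophage markers, none was past 1.5-fold in DN and 4 were higher in TS (2 with centring), with medians of 0.12 and 0.55 (0.42 in TS with centring) and summed levels 1.09 and 1.40 times that of Ct. Of 8 endothelial markers, 2 were lower in DN and 1 in TS, with summed levels 0.765 and 0.866 times that of Ct, and of 8 fibroblast markers none was past 1.5-fold in DN and 1, Pdgfra, was higher in TS. Beside these counts, 4.93% of all compared genes were at least 1.5-fold higher and 5.53% lower in DN. In TS 5.89% were higher and 2.68% lower (3.52% and 3.94% with centring). All 8 neutrophil markers fell under the filter, with values from 4.02 to 5.87. RMA gives no value of 0, so absence of a marker cannot be read from these arrays. The part of these cells in the metallothionein values was not tested.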

How the data were processed

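Soleus RNA pooled from 6 rats per group was measured on 1 Affymetrix Rat Gene 1.0 ST array for each of DN, TS and Ct, placed by their labels. The authors made the deposited log2 values by RMA in Affymetrix Expression Console, as a core-exon analysis, per the labels' descriptions. The base of the logarithm is not stated there, and folds rest on base 2. No source used here gives the version, the annotation or the build. The series text speaks of 2 arrays, and 3 were used here.

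Of 29170 probe sets, 15310 had 1 symbol in the platform annotation, 323 several and 13537 none; the last 2 kinds were left out. The brightest probe set stood for a gene, and genes with a mean under the 30th percentile were not compared. Differences were counted at 1.5-fold, with no test. Promoters came from RefSeq (GRCr8). Named genes were all members, up to 4 genes per list with the largest differences from Ct, and the 5 genes nearest to each member past 1.5-fold; Slc39a10, Slc31a1, Sod1, Nr3c1, Fabp4, Il6 and genes under the filter were named after their values were seen. The members and lists were chosen with earlier results of these data known. Counting was tested on simulated data. Alternatives were other scalings, an added 32 on the linear scale, other filters, other uses of probe sets and a 2-fold limit. Precision is limited by the number of arrays. Python 3.11.15, numpy 2.4.6, pandas 2.3.3, statsmodels 0.14.6 and matplotlib 3.10.9 were used.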

Additional observations from a re-analysis of the deposited data

How the results depend on the processing

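Counts of members past the limit were the same under 9 of the 10 alternatives tried, and at a 2-fold limit the count higher in DN than in TS was 0 in place of 1, since Mt1 differed by 1.78-fold. Over all alternatives Mt1 ran from 2.58 to 2.89 for DN minus Ct, from 1.69 to 1.91 for TS minus Ct and from 0.81 to 0.98 for DN minus TS, and Mt2A from 2.22 to 2.31, from 1.97 to 2.14 and from 0.16 to 0.30. Differences under 1.5-fold could change sign, as Mtf1 did in TS minus Ct (-0.01 to 0.12) and Slc39a14 in DN minus Ct (-0.01 to 0.01). Centring on the compared genes and using the dimmer probe sets of Mt1 and Mt2A were chosen after seeing the data. With that centring 3.52% of compared genes passed 1.5-fold upward and 3.94% downward in TS against Ct, and 4.63% upward and 3.76% downward in DN against TS. At 2-fold, 2.24% were higher and 2.24% lower in DN than in Ct, 1.37% and 0.689% in TS than in Ct, and 1.20% and 1.74% in DN than in TS. No paired analysis was possible because each group had 1 array. With no replicates, none could be left out.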
